A study of Sus scrofa with 12 samples.

Results

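The genes described here are those of the swine leukocyte antigen (SLA) complex, the major histocompatibility complex (MHC) of the pig, and their partners in antigen presentation, read from RNA sequencing counts of Semimembranosus, a muscle of the ham. Members were the rows of the count table whose Ensembl identifier carried, in the pig gene name table, 1 of 10 symbols: SLA-1, SLA-2, SLA-3, SLA-DRA, SLA-DRB1, SLA-DQA1, SLA-DQB1, SLA-DMA, B2M and CD74. Of the 10 symbols, 3 led to a row with counts among the 25880 genes listed: SLA-DQB1 (ENSSSCG00000001457), SLA-DMA (ENSSSCG00000001470) and CD74 (ENSSSCG00000033262). All 3 passed the filter on low counts. No identifier was paired with 6 of the symbols, and the identifier of B2M had no row, so the class I heavy chains and B2M were not analysed here. The row ENSSSCG00000001453 carried the human name HLA-DRA, the DR alpha chain, and is described beside the members under that name without being counted among them.

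The 12 animals were Italian Large White pigs aged 229 to 249 days and of like weight, reared under the same conditions on the same feed. By the paper they were slaughtered on different days and their libraries were sequenced in pairs per lane, and neither day nor lane entered the tests. The labels name no treatment, genotype or allele. By the labels 6 had high and 6 low intramuscular fat (IMF), and each group held 3 females and 3 males, the males being barrows (castrated) by the paper. Each library came from 1 pig and held 131048805 to 178013997 counts. The skeletal muscle genes ACTA1, CKM and DES together reached 24853 to 50868 CPM, counts scaled to libraries of equal size, in every pig. By contrast, 5 adipocyte genes, ADIPOQ and PLIN1 among them, had a median log2 fold change, low over high IMF, of only 0.14. The counts of 2 Y chromosome genes went against the labelled sex in 6 of the 12 pigs (2 with high IMF, 4 with low IMF). Results are therefore also given for the remaining 4 and 2 pigs. Whether the IMF label of each library is right could not be checked from the counts in any pig, also where the sex label was followed.

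MHC class I molecules show peptides made inside the cell to cytotoxic T cells, and almost every nucleated cell carries them. MHC class II molecules, DR and DQ in the pig, show peptides taken up from outside and belong mainly to macrophages, dendritic cells and B cells. Each class II molecule is a pair of an alpha and a beta chain; the invariant chain CD74 guards the groove until the DM molecule, made of SLA-DMA and SLA-DMB, helps a peptide to bind. Transcription of these genes runs through a shared promoter module of an X box and a Y box, the latter an inverted CCAAT motif bound by NF-Y, and through the coactivator CIITA. In muscle, a bulk sample mixes fibres with the immune, vascular and fat cells between them, and fewer cells of a type cannot be told apart from less RNA per cell.

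The class II chain genes lie together on chromosome 7 of Sscrofa11.1, and CD74 lies apart on chromosome 2. By the RefSeq annotation, SLA-DRA spans chr7:24825037-24830650 on the plus strand, SLA-DQB1 chr7:24969034-24977238, SLA-DMB chr7:25119278-25125089 and SLA-DMA chr7:25133494-25137928 on the minus strand, and CD74 chr2:151402210-151409924 on the minus strand. The 150 bases before each annotated start are shown to look there for the module through which class II genes are known to be driven together. They were read from the RefSeq genome in the direction of transcription, and they lie at chr7:24824887-24825036, chr7:24977239-24977388, chr7:25137929-25138078 and chr2:151409925-151410074 in the order printed. Capitals mark every CCAAT or ATTGG and, where ATTGG follows it at 10 to 35 bases on the same strand, ACNNATG, letters chosen from these X boxes after the sequences were seen.
SLA-DRA: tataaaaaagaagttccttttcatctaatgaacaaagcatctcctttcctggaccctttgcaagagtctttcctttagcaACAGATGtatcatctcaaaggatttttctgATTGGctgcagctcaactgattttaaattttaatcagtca
SLA-DQB1: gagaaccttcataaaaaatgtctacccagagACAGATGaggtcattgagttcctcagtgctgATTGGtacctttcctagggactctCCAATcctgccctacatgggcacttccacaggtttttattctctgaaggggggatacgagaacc
SLA-DMA: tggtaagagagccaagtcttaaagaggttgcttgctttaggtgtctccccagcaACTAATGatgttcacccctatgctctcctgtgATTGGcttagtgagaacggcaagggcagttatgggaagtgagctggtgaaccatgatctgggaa
CD74: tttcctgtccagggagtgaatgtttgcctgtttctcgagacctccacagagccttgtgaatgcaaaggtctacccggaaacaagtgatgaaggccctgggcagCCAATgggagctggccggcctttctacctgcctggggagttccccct

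The 3 MHC chains shared the pair of motifs with like spacing. The bases between the pair numbered 23 in SLA-DRA, 24 in SLA-DQB1 and 25 in SLA-DMA, and SLA-DMB, not printed, had the pair with 23 bases between. CD74 held a CCAAT on the printed strand and no such pair. Among 19559 windows of the same length before RefSeq protein-coding genes, 23.1% held CCAAT on either strand, 6.55% held ACNNATG on the printed strand and 0.194%, 38 windows, held the pair. Because the letters ACNNATG were chosen from these X boxes, the sharing was set by that choice and the shares are no test of it. The lack of a pair in CD74 depends on the same letters and on the orientation asked for. A match is a description of these letters in the reference genome, and the alleles of the 12 pigs were not read.

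CD74 was the most abundant member and SLA-DMA the least. Levels are given as CPM after TMM normalization, which scales each library by a trimmed mean of its log ratios to a reference library. In this paragraph they are set side by side between genes per kilobase of coding length. Elsewhere, the highest mean CPM of a list, sums over markers and ratios between genes take no account of length. On that scale the median of the high IMF pigs was 82.0 CPM per kilobase for CD74, 56.5 for HLA-DRA, 25.2 for SLA-DQB1, 6.54 for SLA-DMB, 1.84 for SLA-DMA and 1.04 for SLA-DOA, a chain of the DO molecule that restrains DM. In the low IMF pigs the medians were 82.9, 53.1, 18.4, 5.92, 1.51 and 1.01 in the same order. Over all pigs the ranges of CD74 (77.0 to 130.4) and HLA-DRA (43.4 to 106.3) overlapped, as did those of SLA-DMA (1.20 to 2.89) and SLA-DOA (0.482 to 1.42). The other neighbours in this order did not overlap in any pig.

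SLA-DQB1, the DQ beta chain and among the most variable genes of the complex between individuals, had the widest spread of the 3 members. In the high IMF group it was lowest at 10.9 CPM, had a median of 19.8 and reached 32.5 CPM (mean 19.8 ± 7.39, SD, n = 6). In the low IMF group it ran from 9.82 CPM through a median of 14.4 to 20.9 CPM (mean 14.3 ± 4.11, SD, n = 6). The groups overlapped: pig 6 stood highest, and pig 3 of the high IMF group lay among the lowest 3 with low IMF pigs 9 and 10. With 1555 to 4094 counts per pig, counting error was small beside this spread. Counts of so variable a gene also depend on how closely the alleles of a pig match the reference genome, which was not measured.

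SLA-DMA, the alpha chain of the peptide-loading DM molecule, was low in this tissue. High IMF pigs ran from 0.986 to 2.26 CPM, median 1.44 (mean 1.54 ± 0.459, SD, n = 6), and low IMF pigs from 0.940 to 1.55 CPM, median 1.18 (mean 1.24 ± 0.259, SD, n = 6). Pig 6 was again highest, and 4 of the 6 high IMF pigs lay within the range of the low IMF pigs. Its 141 to 295 counts per pig make it the least precisely measured member.

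CD74 was the most even member. High IMF pigs ran from 75.3 to 90.3 CPM with a median of 78.7 (mean 81.4 ± 6.67, SD, n = 6), and low IMF pigs from 73.9 to 125.2 CPM with a median of 79.6 (mean 87.6 ± 19.2, SD, n = 6). Apart from pig 7 every pig lay at or below 90.3 CPM. Scaled by the library total without TMM, pig 7 stayed highest at 101.4 CPM, with the other 11 pigs between 72.6 and 91.3 CPM. TMM raised the levels of pig 7 to 1.23 times those by library total, against 0.890 to 1.09 times in the other 11 pigs. Its library also had the fewest genes with a count (15270).

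HLA-DRA, the DR alpha chain, ran from 34.9 to 80.7 CPM, median 42.9, in the high IMF group (mean 48.6 ± 17.4, SD, n = 6) and from 33.0 to 46.4 CPM, median 40.3, in the low IMF group (mean 40.6 ± 4.62, SD, n = 6). Pig 6 stood highest here too, as for SLA-DQB1 and SLA-DMA, and the other 11 pigs lay at or below 54.3 CPM.

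**Figure D1:**
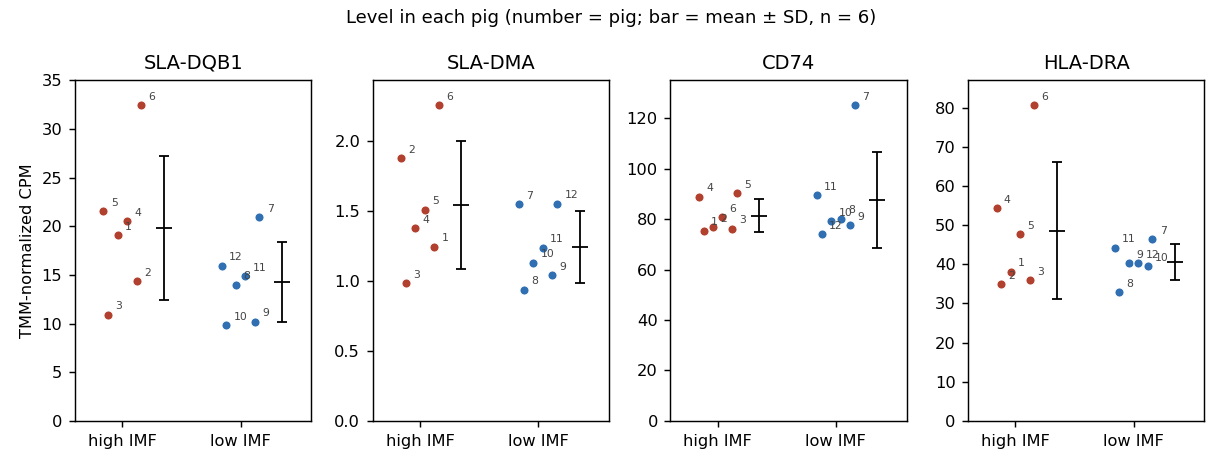
TMM-normalized CPM of SLA-DQB1, SLA-DMA, CD74 and HLA-DRA in each pig (points, numbered by pig) by IMF group, with the mean ± SD of 6 pigs as bars, on linear axes from 0. Pig 6 is the highest point for SLA-DQB1 (32.5 CPM), SLA-DMA (2.26 CPM) and HLA-DRA (80.7 CPM) and pig 7 for CD74 (125.2 CPM), and the groups overlap in all 4 plots.

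None of the 3 members passed the test between low and high IMF. The test was edgeR's quasi-likelihood test, with p adjusted by the Benjamini-Hochberg method across 14262 genes, and a call needed an adjusted p of 0.05 or less together with a log2 fold change (low over high IMF) no smaller in size than 0.58. It called 0 of the 3 members and 0% of all genes tested. An unadjusted p of 0.05 or less was reached by 10.4% of all genes and by 0 of the 3 members. DESeq2's Wald test, which called 58 of the 13117 of these genes that it gave an adjusted p (0.442%), and limma-voom, which called 0, also called no member. SLA-DQB1 had a log2 fold change of -0.47 (SE 0.246, edgeR adjusted p = 0.518), the largest in size of the 3, which corresponds to 1.39-fold more in high IMF pigs. An exact two-sided permutation test of its log2 CPM over all arrangements of the 12 pigs gave p = 0.147. SLA-DMA had a log2 fold change of -0.31 (SE 0.215, edgeR adjusted p = 0.636) and CD74 one of 0.11 (SE 0.127, edgeR adjusted p = 0.806). HLA-DRA lay at -0.26 (SE 0.189, edgeR adjusted p = 0.656).

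These differences moved when single pigs were left out. Without pig 6 the log2 fold change was -0.27 for SLA-DQB1, -0.17 for SLA-DMA and -0.06 for HLA-DRA, and without pig 7 that of CD74 was -0.018. In the 4 high and 2 low IMF pigs whose Y chromosome counts followed the labelled sex, it was -0.48 for SLA-DQB1, -0.27 for SLA-DMA, 0.03 for CD74 and -0.29 for HLA-DRA. Markers of macrophages, cells that carry class II molecules, moved with pig 6: 8 of the 10 markers, CD163 not among them, were highest in that pig, and the other 2 in pig 7. The summed level of the 10 ran from 81.7 to 192.7 CPM in the high IMF group, the latter in pig 6, and from 91.5 to 161.7 CPM in the low IMF group, the latter in pig 7. All 10 had counts in every pig. Of the 10, 2 had an unadjusted edgeR p of 0.05 or less and were higher in high IMF pigs, as 5.04% of all genes tested were. They were AIF1 and MSR1, for which an exact permutation test of log2 CPM gave p = 0.0498 and p = 0.242. For MSR1, pig 6 stood at 5.81 CPM and every other pig at or below 1.91 CPM. The part of the macrophage markers in the class II levels was not tested.

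Markers of the other cells that muscle holds gave no call by edgeR in any list, beside 0% of all genes tested. The absence of calls therefore does not set these lists apart. Among macrophage markers the log2 fold change ran from -0.96 for MSR1 (SE 0.443, edgeR adjusted p = 0.477) to 0.25 for CD163 (SE 0.178, edgeR adjusted p = 0.654), the marker with the highest mean CPM. The 5 dendritic cell markers tested had a median of -0.39, from -1.07 for FCER1A to 0.06 for ZBTB46, and the 6 T cell markers one of -0.40, from -0.81 for CD3E to 0.10 for CD3D. The 5 endothelial markers had a median of 0.16, from -0.10 for KDR to 0.55 for CDH5, and summed to between 97.9 and 166.1 CPM. T cell markers summed to at most 4.60 CPM and dendritic cell markers to at most 3.43 CPM. The 3 B cell markers tested had a median of -0.27, from -0.41 for BANK1 to -0.26 for CD79A.

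No member had separate levels. A gene was described as having 2 levels where the widest gap between neighbouring pigs was at least 1 on the log2 scale and at least 50% of the whole range, with 2 or more pigs on each side, which 1.48% of all genes tested met. The highest pig exceeded the lowest 3.31-fold for SLA-DQB1, 2.41-fold for SLA-DMA, 1.69-fold for CD74 and 2.45-fold for HLA-DRA. On the log2 scale the range of SLA-DQB1 was 1.72, wider than that of 91% of the genes of like level, and the median range of all genes tested was 1.10. The range of HLA-DRA was 1.29, wider than that of 84%, and those of SLA-DMA (1.25, wider than 45%) and CD74 (0.76, wider than 50%) lay near the middle. The widest gap within SLA-DQB1 was 0.59 on the log2 scale and separated pig 6 from the other 11.

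Ratios within each pig set a gene against another of the same pathway, since the DQ alpha chain, the partner of SLA-DQB1, was not analysed here. HLA-DRA varies little in sequence between individuals while SLA-DQB1 varies much, so their ratio compares a variable with a nearly constant class II chain. SLA-DQB1 over HLA-DRA ran from 0.303 to 0.499 in high IMF pigs, median 0.407, and from 0.248 to 0.451 in low IMF pigs, median 0.366. Pigs 9 and 10 of the low IMF group, at 0.253 and 0.248, and pig 3 of the high IMF group, at 0.303, held the 3 lowest ratios, the pigs with the lowest SLA-DQB1 levels. Pig 6, highest for both genes, stood at 0.402, within the range of the others. The spread of the ratio over the 12 pigs was 2.01-fold from lowest to highest, against 3.31-fold for SLA-DQB1 alone.

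CD74 over HLA-DRA was lowest in pig 6 at 1.00 and between 1.64 and 2.70 in the other 11 pigs. Pig 6 had the highest HLA-DRA and a CD74 level of 80.7 CPM, within the range of the others. SLA-DMA over HLA-DRA ran from 0.0254 to 0.0538 in the high IMF group, with pig 2 highest, and from 0.0259 to 0.0385 in the low IMF group. Against its own partner SLA-DMB, SLA-DMA ran from 0.216 to 0.374 and from 0.206 to 0.307 in the same order.

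**Figure D2:**
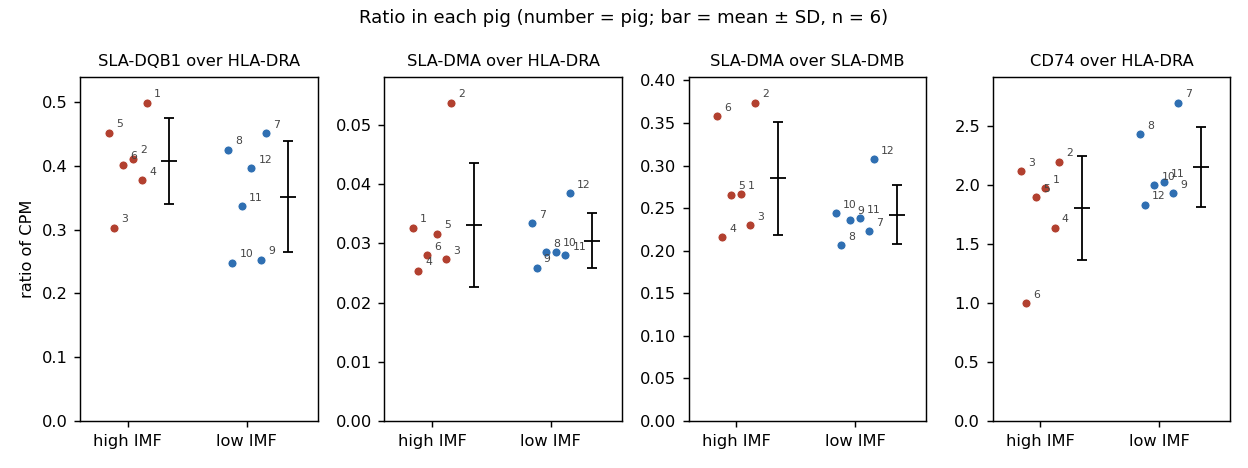
Ratio of the CPM of 2 class II pathway genes in each pig (points, numbered by pig) by IMF group, with the mean ± SD of 6 pigs as bars, on linear axes from 0. Pigs 3, 9 and 10 have the lowest SLA-DQB1 over HLA-DRA (0.303, 0.253 and 0.248), and pig 6 has the lowest CD74 over HLA-DRA (1.00).

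Over the 12 pigs, the highest of the 6 correlations among SLA-DQB1, SLA-DMA, CD74 and HLA-DRA were those of SLA-DQB1 with HLA-DRA and with SLA-DMA, and this order rested in part on pig 6. For SLA-DQB1 and HLA-DRA, Pearson's r of log2 CPM was 0.77 (permutation p = 0.00488, adjusted over 6 pairs 0.0199) and Spearman's rho 0.73 (permutation p = 0.0084, adjusted 0.0387). For SLA-DQB1 and SLA-DMA, r was 0.75 (permutation p = 0.00664, adjusted 0.0199) and rho 0.71 (permutation p = 0.0129, adjusted 0.0387). Without the 2 pigs farthest from the median of SLA-DQB1, r was 0.63 and 0.58 in the same order. Within the groups r was 0.89 in high and 0.41 in low IMF pigs for SLA-DQB1 and HLA-DRA, and 0.70 and 0.69 for SLA-DQB1 and SLA-DMA. Without pig 6, r was 0.58 for SLA-DQB1 and HLA-DRA and 0.59 for SLA-DQB1 and SLA-DMA.

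For CD74 and HLA-DRA, r was 0.28 (permutation p = 0.29, adjusted 0.348) and rho 0.59 (permutation p = 0.0473, adjusted 0.0946), and without pig 6 r was 0.59, as high as for the pairs above. For SLA-DQB1 and CD74, r was 0.37 (permutation p = 0.235, adjusted 0.348) and rho 0.47 (permutation p = 0.127, adjusted 0.152), with r at 0.46 in high and 0.71 in low IMF pigs and at 0.54 without pig 6. SLA-DMA and HLA-DRA had an r of 0.66 (permutation p = 0.0283, adjusted 0.0566) and a rho of 0.53 (permutation p = 0.0767, adjusted 0.115), and r was 0.35 without pig 6. SLA-DMA and CD74 had an r of 0.19 (permutation p = 0.535, adjusted 0.535) and a rho of 0.11 (permutation p = 0.737, adjusted 0.737), and r was 0.30 without pig 6. These genes share each pig's library, depth and cell makeup.

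The 3 genes whose log2 CPM over the 12 pigs was most like each member, among the genes tested outside the members, were the following. For SLA-DQB1 they were GLCE (Pearson's r 0.91), ENSSSCG00000032067 (0.91) and NHLRC3 (0.90). The r of SLA-DQB1 was 0.80 with SLA-DMB and 0.77 with HLA-DRA. Genes picked as the highest of all those tested cannot lie below these chains, so their higher r is no result. How high an r such a search over 12 pigs gives by chance was not tested, nor was the part of single pigs. For SLA-DMA they were IL10RA (0.97), TAGAP (0.95) and ENSSSCG00000004024 (0.92). For CD74 they were ARL2 (0.96), ENSSSCG00000020505 (0.95) and ENSSSCG00000019239 (0.94).

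CIITA, the coactivator that class II genes depend on, had 2 separate levels, which none of the class II genes measured here had. Pigs 3, 5 and 6 of the high and pig 12 of the low IMF group stood at 9.94, 11.4, 8.75 and 9.61 CPM. The other 8 pigs lay between 0.965 and 1.88 CPM, so a 4.63-fold gap separated the levels, and the lower level still held 147 to 295 counts per pig. The range was 3.55 on the log2 scale, wider than that of 98% of the genes of like level. The log2 fold change, low over high IMF, was -1.02 (SE 0.728, edgeR adjusted p = 0.650), and it was 0.82 in the pigs whose Y chromosome counts followed the labelled sex. CIITA lies at chr3:32171706-32230775 on the minus strand, and none of the 6 tested named genes within 600 kb of it, among them CLEC16A and NUBP1, had 2 levels. As only 1.48% of all genes tested had 2 levels, 6 genes are too few to show whether the split is confined to CIITA.

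The levels of the class II genes overlapped between the pigs of the upper and the lower CIITA level. In the 4 pigs of its upper level SLA-DQB1 ran from 10.9 to 32.5 CPM, and in the other 8 from 9.82 to 20.9 CPM. HLA-DRA ran from 36.0 to 80.7 CPM and from 33.0 to 54.3 CPM, and CD74 from 73.9 to 90.3 CPM and from 75.3 to 125.2 CPM, in the same order. SLA-DMB ran from 4.30 to 6.31 CPM and from 4.41 to 6.94 CPM, and SLA-DOA from 0.669 to 1.07 CPM and from 0.363 to 0.977 CPM, in the same order. Pig 3, with the second highest CIITA, ranked 10th from the top for SLA-DQB1, HLA-DRA and CD74 and 11th for SLA-DMA, while pig 6, with the lowest CIITA of the 4, ranked highest for SLA-DQB1, SLA-DMA and HLA-DRA. HLA-DOB, with only 6 to 54 counts per pig, differed in order. It ran from 0.0762 to 0.372 CPM in the 4 pigs and from 0.0367 to 0.197 CPM in the other 8. For HLA-DOB, pigs 3, 5, 6 and 12 ranked 1, 2, 3 and 8 from the top.

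**Figure D3:**
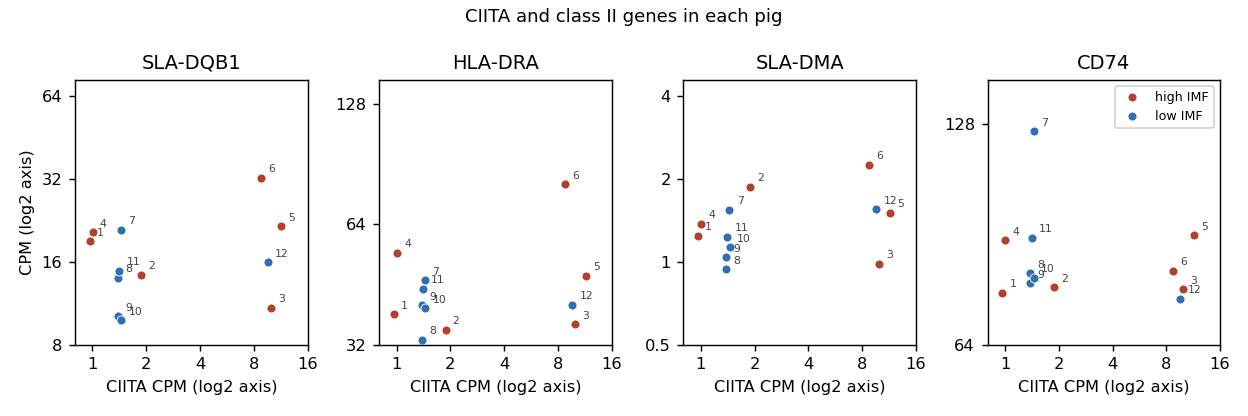
CPM of SLA-DQB1, HLA-DRA, SLA-DMA and CD74 (vertical, log2 axis) against CPM of CIITA (horizontal, log2 axis) in each of the 12 pigs, coloured by IMF group and numbered by pig. Pigs 3, 5, 6 and 12 lie apart at 8.75 to 11.4 CPM of CIITA, and their levels of the other 4 genes overlap those of the remaining 8 pigs.

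The remaining genes of the pathway came from lists of class I-like genes, class I peptide loading, class II chains and loading, and regulators. None of the 37 genes tested in these lists was called, by edgeR, limma-voom or DESeq2, beside 0% of all genes tested by edgeR. Of 9 class I heavy chain and class I-like symbols only FCGRT and MR1 had an identifier with counts. FCGRT, the Fc receptor that recycles antibodies, averaged 41.5 CPM in high and 44.4 in low IMF pigs (log2 fold change 0.10, SE 0.125, edgeR adjusted p = 0.817). MR1, which presents vitamin B metabolites, had a log2 fold change of -0.62 (SE 0.371, edgeR adjusted p = 0.581) and a 7.13-fold spread between pigs, from 0.839 to 5.98 CPM.

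All 14 genes of class I peptide loading were tested, 9 with a log2 fold change above 0 and 5 below, with a median of 0.10 beside -0.0083 over all genes. CALR, the chaperone calreticulin, lay highest at 0.32 (SE 0.128, unadjusted p = 0.0243, edgeR adjusted p = 0.441) and PSMB10, a subunit of the immunoproteasome, lowest at -0.12 (SE 0.206, edgeR adjusted p = 0.873). CANX, the chaperone calnexin, had the highest mean CPM, at 47.4 to 128.5 CPM. TAP1 and TAP2, the partner chains of the peptide transporter, ran from 6.51 to 16.3 CPM and from 2.65 to 7.55 CPM over the 12 pigs.

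Of the other class II chains and loading genes, 7 of 10 symbols were tested, 2 with a log2 fold change above 0 and 5 below, with a median of -0.07. CTSL, the protease cathepsin L, lay lowest at -1.78 (SE 0.658, unadjusted p = 0.0173, edgeR adjusted p = 0.427), with pig 6 at 45.5 CPM and the other 11 pigs between 1.79 and 10.7 CPM. LGMN, the protease legumain, lay highest at 0.06 (SE 0.201, edgeR adjusted p = 0.944), and CTSB, cathepsin B, had the highest mean CPM, at 85.3 to 139.0 CPM. HLA-DOB, the beta chain of DO under its human name, held only 6 to 54 counts per pig and had a log2 fold change of -0.98 (SE 0.486, edgeR adjusted p = 0.4995).

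Of the regulators, 14 of 15 symbols were tested, 4 with a log2 fold change above 0 and 10 below, with a median of -0.05. CIITA lay lowest and IFNGR2, a chain of the interferon gamma receptor, highest at 0.20 (SE 0.178, edgeR adjusted p = 0.730). JAK1, a kinase of the same receptor, had the highest mean CPM, at 127.9 to 199.1 CPM. After TMM, JAK2, the partner kinase, was the 1 gene of these lists whose groups did not overlap, as 0.659% of all genes tested did. JAK2 is named after its values were seen. It ran from 30.8 to 43.1 CPM in high and from 24.0 to 30.4 CPM in low IMF pigs (log2 fold change -0.33, SE 0.102, unadjusted p = 0.00628, edgeR adjusted p = 0.419). Scaled by the library total without TMM, the groups overlapped. Low IMF pig 9 then stood at 31.7 CPM, above high IMF pigs 2 (31.3 CPM) and 5 (31.0 CPM).

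**Figure D4:**
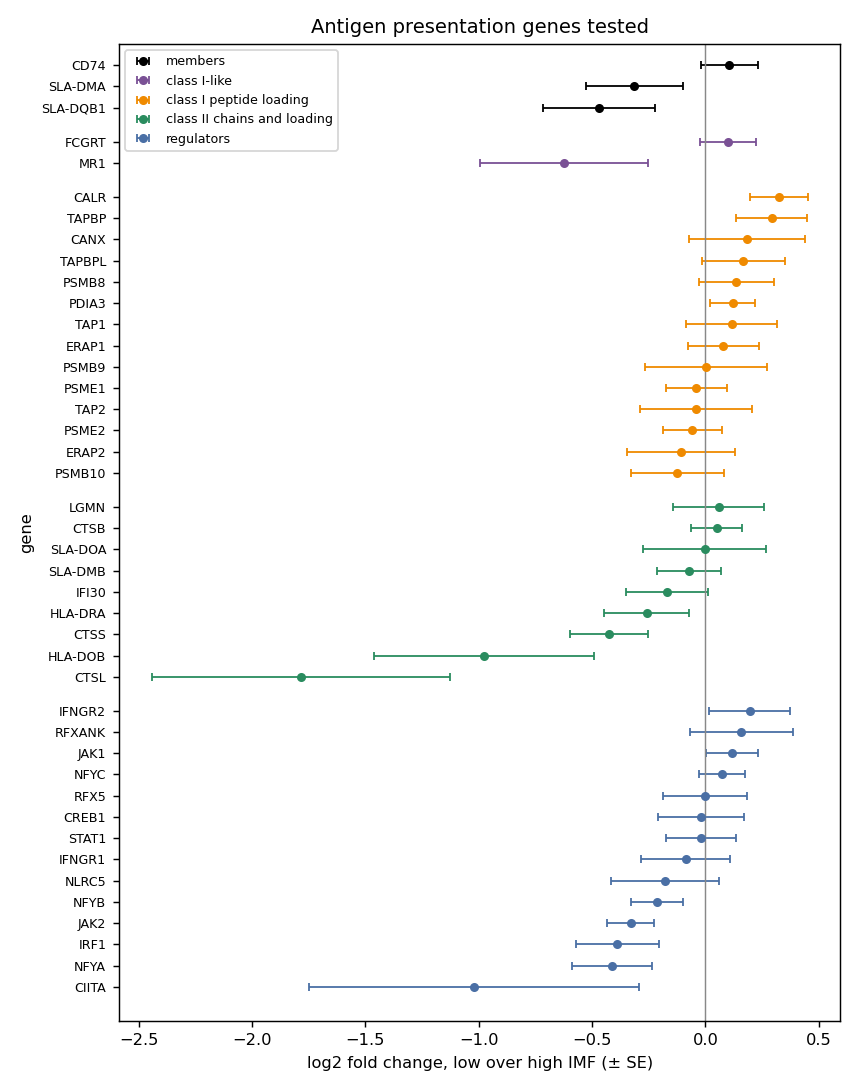
Log2 fold change, low over high IMF, with its standard error, of every gene tested among the members and the 4 pathway lists, with HLA-DRA and HLA-DOB placed among the class II chains. Values run from -1.78 for CTSL to 0.32 for CALR, and no gene shown passed the adjusted threshold.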

How the data were processed

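Stranded libraries of polyadenylated RNA from 12 pigs were sequenced by the authors, trimmed with Trimmomatic, aligned to Sscrofa11.1 with HISAT2 and counted per Ensembl gene with HTSeq. The authors deposited raw counts per gene and pig. The annotation release, strand setting and treatment of multiply aligned reads are not given in the sources used here, so counts of near-identical or overlapping genes are uncertain, and counts of variable SLA genes depend on how closely each pig's alleles match the reference.

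Pigs were grouped by the labels. Genes kept by filterByExpr were TMM-normalized and compared with edgeR 4.0.16 (quasi-likelihood test, R 4.3.3), with group as the only term. Benjamini-Hochberg adjustment ran over 14262 genes. Log2 CPM used a prior count of 2. Genes of like level had a mean log2 CPM within 1. Correlations used 100000 resamples for r and 20000 for rho (scipy 1.17.1). Alternatives were DESeq2 1.42.0, limma-voom (limma 3.58.1), other scalings and filters, labelled sex, and pigs left out. Scripts were tested on simulated data. Positions and coding lengths came from RefSeq, matched by symbol.

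The genes named are the members, from each list the gene with the highest mean CPM and those with the highest and lowest log2 fold change, and the 3 genes most like each member. HLA-DRA, HLA-DOB, SLA-DMB, SLA-DOA, TAP1, TAP2, JAK2, ERAP2, AIF1, DES, CLEC16A and NUBP1 fall outside this rule and were chosen after values were seen. The members and lists were chosen with earlier results of these data known. P-values of the group tests set a difference against the variation between pigs. Those of the correlations set r or rho against values from shuffled pairings of the pigs.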

Additional observations from a re-analysis of the deposited data

Results flagged for a closer look

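In 24 sets of 6 pigs (12 genes or ratios in each group), 5 had a pig far from the other 5 by Dixon's criterion. Chance gives this in about 1 of 20 independent sets. These sets share pigs, and the ratios are built from the same genes, so the 5 cannot be set against that share. CD74 in pig 7 of the low IMF group stood at 125.2 CPM (log2 6.97) against 73.9 to 89.5 CPM in the other 5. SLA-DMB in the same pig stood at 6.94 CPM (log2 2.80) against 4.41 to 5.20 CPM. Scaled by the library total without TMM, SLA-DMB in pig 7 was 5.62 CPM, and the low IMF group reached 5.68 CPM. CIITA in pig 12 of the low IMF group stood at 9.61 CPM (log2 3.27) against 1.39 to 1.45 CPM. SLA-DMA over HLA-DRA in pig 2 of the high IMF group was 0.0538 (log2 -4.22) against 0.0254 to 0.0326. CD74 over HLA-DRA in pig 6 of the high IMF group was 1.00 (log2 0.000283) against 1.64 to 2.20.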

How the results depend on the processing

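No member and no other antigen presentation gene was called under any of the 20 alternatives. Over all genes the count of calls was 58 by DESeq2's Wald test, or 65 when every gene with a count entered it, and it ran from 0 to 1 with each pig left out, with 1 call without high IMF pig 5 and 1 without low IMF pig 10. The log2 fold change of SLA-DQB1 ran from -0.61 to -0.27 with each pig left out and from -0.48 to -0.44 under the other alternatives, that of SLA-DMA from -0.41 to -0.17 and from -0.32 to -0.27, and that of HLA-DRA from -0.34 to -0.06 and from -0.29 to -0.20. CD74 ran from -0.018 to 0.16 with each pig left out, reversing to -0.018 without low IMF pig 7. CIITA reversed to 0.82 without the pigs whose Y chromosome counts went against the label, which leaves 2 low IMF pigs, and ran from -1.98 to -0.69 with each pig left out. The log2 range of CD74 moved from 0.76 to 0.48 with the library total in place of TMM, and CIITA kept its 2 levels under all 3 scalings. The summed class I level was not run, since no heavy chain had an identifier. No paired analysis was possible because the 2 groups held different pigs and the labels name no pairing between them. Among the class II chains, depth limits HLA-DOB (6 to 54 counts per pig) most, then SLA-DOA (57 to 162) and SLA-DMA (141 to 295).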

Other observations

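ERAP2, the peptide-trimming aminopeptidase of class I loading, is given for its spread, chosen after its values were seen. Pigs 1 and 9 stood lowest at 8.43 and 8.75 CPM and the other 10 between 13.9 and 23.0 CPM, and it did not meet the description of 2 levels. Its range of 1.45 on the log2 scale was wider than that of 85% of the genes of like level.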
